A study of Mus musculus with 12 samples.

Results

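The chemokines and chemokine receptors of the postnatal mouse cochlea were followed over 2 ages and with or without stabilization of β-catenin. The members were all rows of the table of normalized counts whose symbol was a numbered *Ccl*, *Cxcl*, *Ccr*, *Cxcr* or *Ackr* gene, or *Cx3cl1* or *Ccrl2*, which gave 49 of 27754 genes. There were 30 ligands, namely 17 CC, 12 CXC and 1 CX3C chemokine, and 19 receptors, namely 9 CC, 5 CXC and 5 atypical receptors. Of these, 20 ligands and 12 receptors had a mean of at least 10 normalized counts over all libraries and were tested, as were 18400 genes in all.

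Treated pups were Sox2-CreER/+; β-catenin-flox(Exon3)/+, and untreated pups were littermates that carried β-catenin-flox(Exon3)/+ without CreER, all on a mixed C57BL/6 and CD1 background. All groups received tamoxifen through the milk of the mother, on postnatal day 1 (P1 libraries, tissue taken on day 4) or on day 4 (P4 libraries, tissue taken on day 7). Each library was made from both cochleae of 1 pup, and the table held 3 libraries of each group other than P4 treated, for which it held 2 (replicates 1 and 3). P4 treated replicate 2 was not analysed here. Cre was driven by *Sox2*, so that exon 3 of *Ctnnb1* can be cut out in SOX2+ cells, and the other cells of the tissue carry the same floxed allele without a driver. A normalized count is the authors' count per gene divided by 1 size factor per library, and the libraries summed to between 41225626 and 44153992 of them.

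Chemokines are small secreted proteins that guide migrating cells. Most bind receptors that signal through inhibitory G proteins, whereas the atypical receptors take up or hold chemokines without signalling through G proteins and so shape how much ligand is left. In the cochlea, resident macrophages carry chemokine receptors, while epithelial, mesenchymal and endothelial cells can make the ligands.

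Some properties of the libraries bear on every comparison. Total *Ctnnb1* ranged from 24107 to 25048 normalized counts in the P1 treated and from 19820 to 25308 in the P1 untreated libraries, and a gene total does not show whether exon 3 was removed. *Xist*, the transcript that silences an X chromosome in female cells, was at 13 to 26 in all P1 treated libraries, at 16 in P1 untreated replicate 1 and at 2794 and 3030 in the other P1 untreated libraries. It was at 3268 and 4180 in the P4 treated and at 32 to 39 in the P4 untreated libraries, so that sex cannot be told apart from age in the treated libraries or from treatment at P4. The 10 hair cell markers summed to between 25951 and 59923 and the 10 supporting cell markers to between 100158 and 182241, and none of them was at 0 throughout a group. The 10 mesenchyme markers still summed to between 133831 and 215590 after the tissue had been separated. Much of each sum was 1 gene, *Lum* (60859 to 141234).

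The sequences before the transcription start are shown for the genes on which the comparisons below turn. Each is the 250 bases before the start in RefSeq (GRCm38.p6), read 5′ to 3′ on the strand of the gene. They lie at chr5:90890995-90891244 (plus strand, *Cxcl1*), chr5:90903649-90903898 (plus, *Cxcl2*), chr5:92328080-92328329 (minus, *Cxcl9*), chr6:117168285-117168534 (plus, *Cxcl12*) and chr9:104126644-104126893 (minus, *Ackr4*). In the GENCODE M21 annotation *Ackr4* spans chr9:104084157-104126933, so that by this annotation its sequence lies within the gene and not before its start. Capitals mark the matches to the kappa-B motif in *Cxcl1* and *Cxcl2*, to TATAAA in *Cxcl9* and *Ackr4*, and to the TCF/LEF motif in *Cxcl12*.
Cxcl1: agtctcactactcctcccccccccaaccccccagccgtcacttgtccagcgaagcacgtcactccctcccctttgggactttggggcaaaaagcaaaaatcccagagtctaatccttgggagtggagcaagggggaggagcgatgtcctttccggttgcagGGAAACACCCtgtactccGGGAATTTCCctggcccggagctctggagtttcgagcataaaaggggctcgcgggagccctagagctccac
Cxcl2: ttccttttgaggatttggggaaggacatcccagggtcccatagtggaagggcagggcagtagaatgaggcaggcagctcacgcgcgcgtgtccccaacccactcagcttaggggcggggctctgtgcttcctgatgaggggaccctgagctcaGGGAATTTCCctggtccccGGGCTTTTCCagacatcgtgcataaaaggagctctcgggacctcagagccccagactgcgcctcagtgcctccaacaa
Cxcl9: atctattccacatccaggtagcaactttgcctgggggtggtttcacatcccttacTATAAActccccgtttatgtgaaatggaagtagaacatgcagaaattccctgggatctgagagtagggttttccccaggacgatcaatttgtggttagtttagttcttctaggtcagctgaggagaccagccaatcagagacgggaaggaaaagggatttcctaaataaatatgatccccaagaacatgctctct
Cxcl12: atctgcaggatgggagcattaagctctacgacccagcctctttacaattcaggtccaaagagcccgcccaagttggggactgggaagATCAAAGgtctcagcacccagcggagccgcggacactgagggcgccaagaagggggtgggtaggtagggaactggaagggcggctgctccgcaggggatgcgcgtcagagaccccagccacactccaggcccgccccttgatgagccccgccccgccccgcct
Ackr4: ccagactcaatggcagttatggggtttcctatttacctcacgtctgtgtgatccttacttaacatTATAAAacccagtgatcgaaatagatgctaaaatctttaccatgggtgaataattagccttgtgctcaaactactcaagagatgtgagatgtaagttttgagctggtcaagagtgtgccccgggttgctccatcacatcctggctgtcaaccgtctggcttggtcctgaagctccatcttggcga

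The kappa-B motif is bound by NF-kB, which carries signals from inflammatory cytokines, and TCF/LEF factors are the DNA-binding partners of β-catenin. Both strands of each sequence were searched. A member was counted if any of its promoters matched, whereas the share over all promoters counts each promoter by itself. The kappa-B letters searched for were GGG, any pair of bases, and TTTCC. They were found in 1.41% of 32851 mouse promoters of this length and in 4 of the 35 members with a sequence in the RefSeq table, *Cxcl1*, *Cxcl2*, *Ccl9* and *Ccl20*. In *Cxcl1* the matches ended 62 and 80 bases before the start and in *Cxcl2* 69 and 88 bases before it. The letters CTTTGAT were found in 3.21% of all promoters and in 1 member, *Cxcl12*, where the match lay on the opposite strand 157 to 163 bases before the start. TATAAA was in 12.4% of all promoters and in 10 of the 35 members, and the AP-1 motif TGANTCA in 6.75% of promoters and in 3 members, *Ccl9*, *Ccr4* and *Cxcl10*. The marked TATAAA lay 190 to 195 bases before the RefSeq start in *Cxcl9* and 180 to 185 bases before it in *Ackr4*. Such a match describes the letters and does not show that a factor was bound.

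A few members held most of the signal. Together, *Ackr3*, *Cxcl12*, *Ackr4*, *Cx3cl1* and *Cxcl14*, each with a mean over 500 normalized counts, held 83.9% of the sum over all members, and 39 members had a mean under 100. Per kilobase of annotated exon, the highest mean was that of *Ackr3* (707 normalized counts per kb), which encodes a scavenger of CXCL12. It was followed by *Cxcl14* (461), a chemokine of epithelia, *Cx3cl1* (375), a membrane-bound ligand for the macrophage receptor CX3CR1, *Ackr4* (297), a scavenger of CCL19, CCL21 and CCL25, and *Cxcl12* (247), which attracts cells that carry CXCR4. Next came *Ccl11* (135), *Cxcl1* (95.3), *Ccl3* (90.2) and *Cxcr4* (80.4). The order changed with age. In P1 untreated libraries *Cxcl12* stood at 365 and *Ackr4* at 244 per kb, and in P4 untreated libraries *Cxcl12* stood at 141 and *Ackr4* at 215 per kb.

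**Figure D1:**
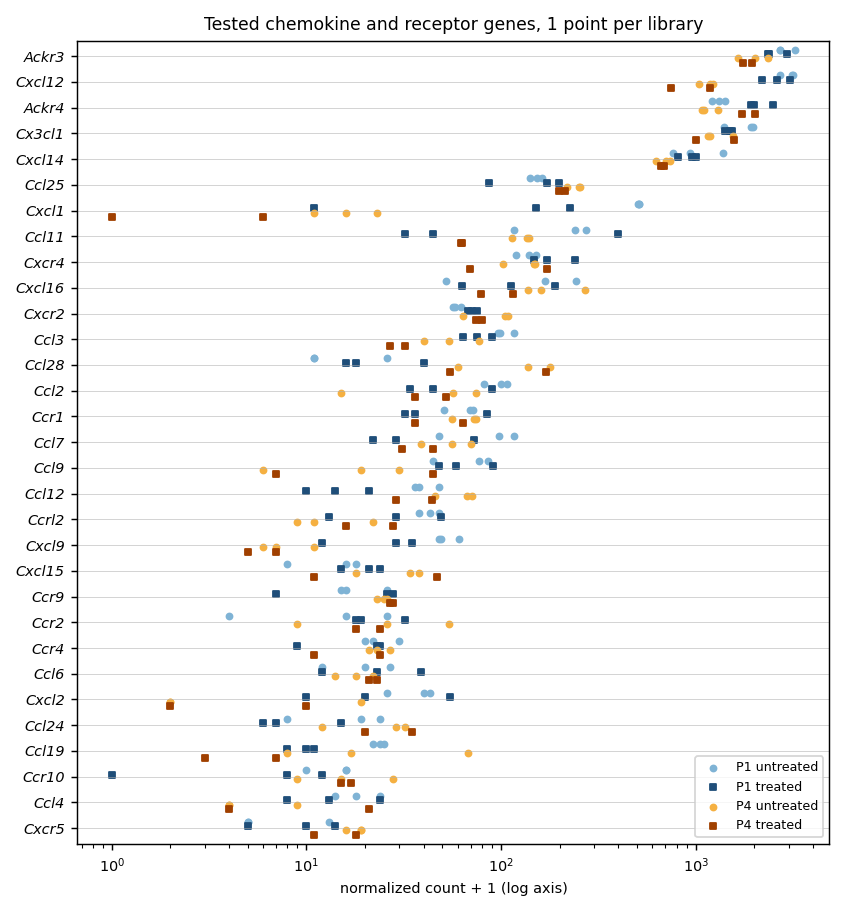
Normalized counts plus 1 (horizontal log axis) of 31 tested members in the 11 libraries, with 1 point per library and the genes ordered by their mean. *Cxcl1* spans the widest range, from 0 normalized counts in a P4 treated library to 512 in a P1 untreated library, while the 5 genes at the top stay at or above 624 in every library.

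The other 17 members were not tested. None exceeded 26 normalized counts in any library, and 14 of them were at 0 in at least 1 library. Among them were the receptors for several ligands that were measured, namely *Cxcr3* (1 to 26), the receptor for CXCL9, *Ccr7* (0 to 13), the receptor for CCL19, and *Cxcr6* (0 to 11), the receptor for CXCL16. The symbols *Ccl8*, *Ccl26*, *Cxcl3*, *Ccr3* and *Cxcr1* also match the rule and were not analysed here.

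Age was compared first between untreated libraries, in which the question was what changes during the first postnatal week without stabilized β-catenin. Of the 32 tested members, 7 were higher at P1, namely *Cxcl1*, *Cxcl2*, *Cxcl9*, *Cxcl12*, *Ccl3*, *Ackr3* and *Ccrl2*. These are 21.9% of the members tested, against 10.5% of all genes tested that were called higher at P1. *Cxcl2* and *Cxcl9* reached the minimum mean through the P1 libraries, in which they were high. Without the filter on low values, 4 members were called higher at P1. A call meant an adjusted P under 0.05 from limma and a level more than 25% above that of the other group. *Ccl28* alone was lower at P1, which is 3.12% of the members against 9.38% of all genes. At an unadjusted P under 0.05 there were 16 members. The share of all genes at that P was not worked out, and it includes the 10.5% and 9.38% that were called. The median log2 fold change (P1 over P4) was 0.12 over the members and 0.02 over all genes.

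*Cxcl1* had the largest change of the members. The gene, which draws neutrophils through CXCR2, lies at chr5:90891241-90893115. It stood at 507, 512 and 508 normalized counts in the P1 untreated libraries and at 10, 22 and 15 in the P4 untreated libraries. The groups were far apart, and the 3 P1 values were within 5 of each other. The P1 level was 32.0 times the P4 level on the scale of normalized counts plus 1 (standard error 1.01 log2 units, adjusted P = 0.00699 from limma). *Cxcl2*, a neighbour of *Cxcl1* that acts on the same receptor (chr5:90903871-90905938), stood at 25, 39 and 42 at P1 and at 18, 1 and 1 at P4. Its highest P4 value came close to its lowest P1 value, and the log2 fold change was 3.07 ± 0.98 (adjusted P = 0.0483 from limma), or 4.15 without P4 untreated replicate 1. Their receptor gene *Cxcr2* stood at 56, 61 and 57 at P1 and at 104, 108 and 63 at P4 (log2 fold change -0.61 ± 0.25, adjusted P = 0.11 from limma), which did not pass.

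*Cxcl9*, an interferon-induced ligand of CXCR3 (chr5:92321347-92328079), stood at 47, 60 and 48 at P1 and at 6, 10 and 5 at P4 in untreated libraries. All P4 values were at or below 10, so that *Cxcl9*, like *Cxcl2*, reached the minimum mean for testing through the P1 libraries. Its log2 fold change was 2.76 ± 0.47 (adjusted P = 0.00293 from limma). *Cxcl12* (chr6:117168535-117181367) stood at 3110, 2698 and 3153 at P1 and at 1227, 1038 and 1187 at P4. Every P1 value was above every P4 value by a wide margin compared with the spread of either group. A log2 fold change of 1.38 ± 0.17 had the smallest adjusted P among the members (0.000695 from limma). The calls for *Cxcl1*, *Cxcl9* and *Cxcl12* held under all 21 alternatives that were run, with log2 fold changes from 4.68 to 5.26, from 2.25 to 3.01 and from 1.30 to 1.45. In P1 untreated replicate 1, the only library of its group with *Xist* as low as at P4, *Cxcl1* stood at 507, *Cxcl9* at 47 and *Cxcl12* at 3110, all above every P4 untreated library.

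The receptors of CXCL12 were both measured. *Ackr3* (chr1:90203980-90216751) stood at 2726, 3246 and 2700 in the P1 untreated and at 2008, 2361 and 1640 in the P4 untreated libraries, and the groups did not overlap. Its log2 fold change of 0.54 ± 0.14 was smaller than that of *Cxcl12* (adjusted P = 0.0235 from limma). Without P1 untreated replicate 2 or P4 untreated replicates 1 or 3 the adjusted P for *Ackr3* was 0.0776, 0.0557 and 0.0825. *Cxcr4*, the signalling receptor, stood at 119, 150 and 139 at P1 and at 102, 146 and 149 at P4, with overlapping groups and a log2 fold change of 0.05 ± 0.34 (adjusted P = 0.931 from limma). The ligand *Cxcl14* stood at 932, 1383 and 763 at P1 and at 624, 705 and 737 at P4, without overlap, and did not pass (log2 fold change 0.53 ± 0.19, adjusted P = 0.072 from limma).

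Among the CC ligands, *Ccl3*, which acts on CCR1 (chr11:83647844-83649355), stood at 116, 95 and 98 in the P1 untreated and at 53, 39 and 76 in the P4 untreated libraries. The log2 fold change was 0.91 ± 0.29 (adjusted P = 0.0469 from limma). This call did not hold with the replicate number as a block (adjusted P = 0.0672) and was lost in 15 of 21 alternatives. The receptor gene *Ccr1* had overlapping groups, with a log2 fold change of -0.09 ± 0.40. *Ccl28*, an epithelial ligand of CCR10 (chr13:119623819-119654359), moved the other way. It stood at 25, 10 and 10 at P1 and at 136, 59 and 177 at P4, and every P4 value was at least 59. Its log2 fold change was -2.95 ± 0.60 (adjusted P = 0.00711 from limma). Its receptor gene *Ccr10* stood between 8 and 27 in the untreated libraries of both ages (log2 fold change -0.19 ± 0.84).

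The last member called was *Ccrl2*, an atypical receptor that binds chemerin without signalling (chr9:111054486-111057519). It stood at 42, 37 and 47 at P1 and at 8, 21 and 10 at P4, with a log2 fold change of 1.72 ± 0.53 (adjusted P = 0.0424 from limma). With the replicate number as a block the adjusted P was 0.0683. Leaving out any single untreated library other than P4 untreated replicate 2 gave an adjusted P from 0.0766 to 0.126 for *Ccrl2*. For *Cxcl2*, leaving out any single untreated library other than P4 untreated replicate 1 gave 0.0846 to 0.151, and for *Ccl3* leaving out any untreated library but P4 untreated replicate 3 gave 0.0823 to 0.14. Leaving out 1 treated library, which bears on the shared spread alone, gave at most 0.0622 for *Ccl3*, *Ccrl2* and *Cxcl2*. With log2 *Xist* as a covariate, *Cxcl1*, *Cxcl9* and *Cxcl12* passed, and the other 5 members did not.

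**Figure D2:**
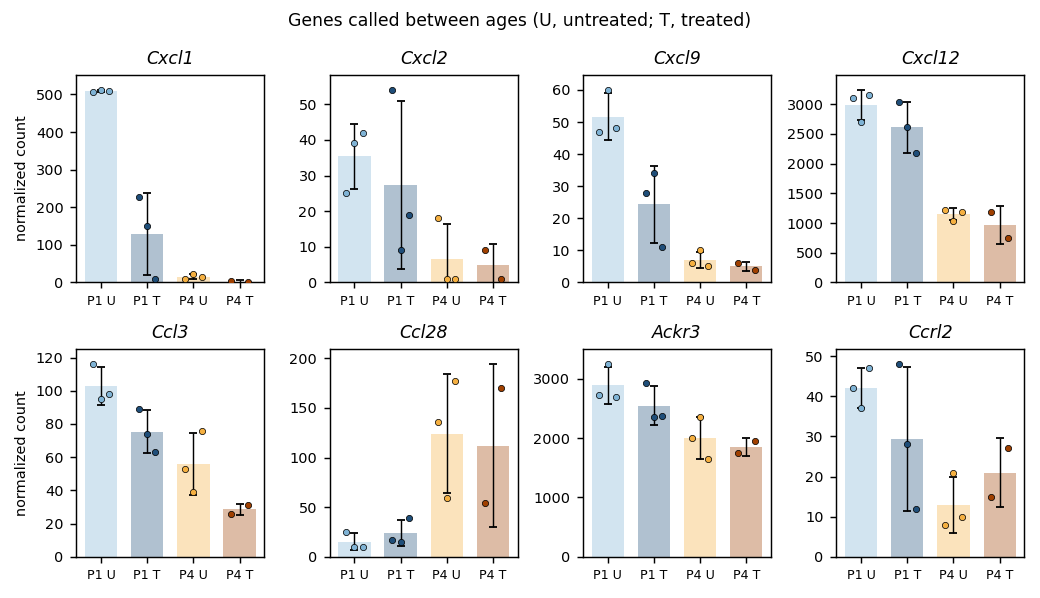
Normalized counts (vertical axes, from 0) of the 8 members called between P1 and P4 untreated libraries. Bars are group means, whiskers the SD and points the libraries, and *Ccl28* is the panel in which the P4 untreated libraries (59 to 177) lie above the P1 untreated libraries (10 to 25).

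Between treated libraries, the same comparison of ages was made with stabilized β-catenin at each age. Here 4 members were higher at P1 and 0 were lower, which is 12.5% and 0% of the members against 5.63% and 5.42% of all genes. The members were *Cxcl12*, *Cxcl1*, *Ccl3* and *Cxcl9*. At an unadjusted P under 0.05 were 9 members, and the share of all genes at that P was again not worked out. *Cxcl9* reached the minimum mean through the P1 libraries, and without the filter on low values 3 members were called. The median over the members was 0.19, and that over all genes was 0.0049.

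*Cxcl12* stood at 3039, 2617 and 2182 in the P1 treated and at 1189 and 742 in the P4 treated libraries, with no overlap and a log2 fold change of 1.46 ± 0.19 (adjusted P = 0.00281 from limma). For *Cxcl1* the values were 226, 150 and 10 at P1 and 5 and 0 at P4. P1 treated replicate 3, with 10, lay far below the other P1 treated libraries and near the P4 values. This gave a log2 fold change of 4.88 ± 1.13 (adjusted P = 0.0231 from limma), and this value depends on the 1 that was added to each count before taking logs. Over the alternatives it ranged from 3.52 to 6.24, with 6.24 when P1 treated replicate 3 was left out, 6.17 when P4 treated replicate 1 was and 3.59 when P4 treated replicate 3 was, and the call was lost in 5 of 21. *Ccl3* stood at 89, 74 and 63 against 26 and 31, with a log2 fold change of 1.36 ± 0.32 (adjusted P = 0.0248 from limma). *Cxcl9* stood at 28, 34 and 11 against 6 and 4, with a log2 fold change of 1.96 ± 0.53 (adjusted P = 0.0389 from limma). Its call did not hold with the replicate block (adjusted P = 0.0615) and was lost in 12 of 21 alternatives.

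Single libraries decided several of these calls. Without P1 treated replicate 1 or without P4 treated replicate 3, 1 member was called, *Cxcl12*. Without P1 treated replicate 2 there were 2, *Cxcl12* and *Ccl3*, and without P4 treated replicate 1 there were 2, *Cxcl12* and *Cxcl1*. With log2 *Xist* as a covariate 0 members passed. *Ccl28* stood at 17, 15 and 39 in the P1 treated and at 54 and 170 in the P4 treated libraries, without overlap, and its log2 fold change of -2.10 ± 0.67 did not pass (adjusted P = 0.0709 from limma). *Ackr3* did not pass either (0.46 ± 0.16, adjusted P = 0.0932 from limma), although its P1 values of 2348 to 2929 lay above its P4 values of 1741 and 1952.

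**Figure D3:**
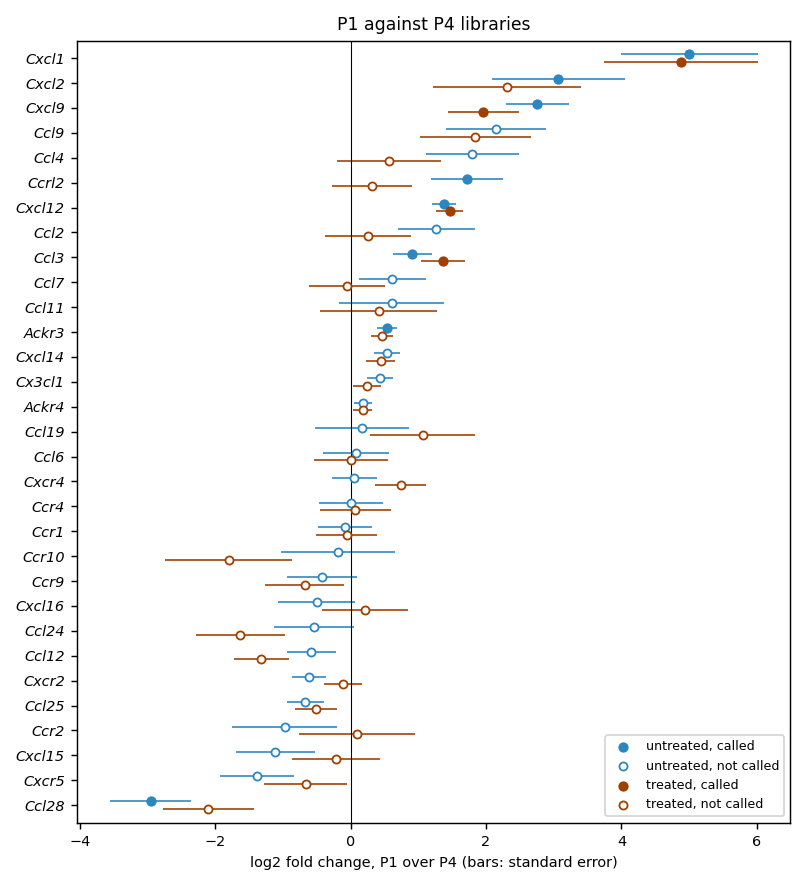
Log2 fold change of P1 over P4 (horizontal axis, bars are standard errors) of 31 tested members in untreated and in treated libraries, with filled points for members called. *Cxcl12* is at 1.38 and 1.46 with short bars, *Cxcl1* lies farthest to the right in both comparisons, and *Ccl28* farthest to the left at -2.95 and -2.10.

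The effect of treatment at P1 was taken from treated against untreated libraries of that age. Treated pups alone carried Sox2-CreER, a knock-in allele, and the authors name lower *Sox2* from such alleles as a limitation. *Sox2* stood at 4930, 5542 and 6006 in P1 treated and at 8042, 10170 and 8121 in P1 untreated libraries. At P4 it stood at 7993 and 7577 against 10485, 10101 and 10461. Effects of the CreER allele and of stabilized β-catenin cannot be told apart here. No member was called by limma (0 of 32), and 0.353% of all genes were called. At an unadjusted P under 0.05, 1 member was higher in treated libraries (3.12% of the members, against 5.18% of all genes) and 4 were lower (12.5%, against 6.99%). Values of the groups were separate for 7 members, or 21.9%, against 15.3% of all genes. Of the 32 members, 24 were below 0, with a median log2 fold change of -0.23, whereas 50.8% of all genes were above 0.

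*Ackr4* (chr9:104084157-104126933) was the member that was higher. It stood at 1913, 1995 and 2484 in the P1 treated and at 1414, 1314 and 1207 in the P1 untreated libraries. Every treated value was above every untreated value. The log2 fold change was 0.69 ± 0.13 (unadjusted P = 0.000248, adjusted P = 0.0596 from limma), just outside the threshold. When P1 treated replicate 1 was left out, *Ackr4* passed with an adjusted P of 0.0302, and over the 21 alternatives it ranged from 0.0302 to 0.666, with log2 fold changes from 0.58 to 0.77.

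At P4 the treated libraries had 2027 and 1723 normalized counts of *Ackr4* and the untreated ones 1302, 1097 and 1071, again without overlap. The log2 fold change was 0.70 ± 0.14 (adjusted P = 0.197 from limma), and the interaction of treatment and age was -0.0044 ± 0.19 (adjusted P = 0.997 from limma). When the treatment effect was averaged over both ages, a comparison added after the data had been seen, *Ackr4* was the only member called (log2 fold change 0.70 ± 0.10, adjusted P = 0.0125 from limma), and 0.674% of all genes were called. The treated libraries were all low in *Xist* at P1 and all high in it at P4. *Ackr4* shares 479 bases, or 8.90% of its exon length, with *Acad11* on the opposite strand, and the library kit does not keep the strand. *Acad11* itself had log2 fold changes of 0.17 ± 0.13 at P1 and 0.09 ± 0.15 at P4 (adjusted P = 0.689 and 0.854 from limma).

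The ligands that ACKR4 takes up were measured as well. *Ccl19* stood at 10, 7 and 9 in the P1 treated and at 21, 24 and 23 in the P1 untreated libraries, without overlap (log2 fold change -1.30 ± 0.69, adjusted P = 0.508 from limma). At P4 it stood at 2 and 6 in treated libraries and at 7, 67 and 16 in untreated ones, again without overlap (-2.20 ± 0.77, adjusted P = 0.33 from limma). P4 untreated replicate 2 held most of that signal, and without it the log2 fold change was -1.35. *Ccl25* stood at 86, 198 and 172 against 140, 153 and 161 at P1, with overlap (-0.08 ± 0.28), and at 211 and 198 against 252, 255 and 217 at P4, without overlap (-0.23 ± 0.31). Its receptor gene *Ccr9* stood at 26 and 27 in P4 treated and at 22 to 25 in P4 untreated libraries, without overlap (0.16 ± 0.58), and 18.8% of its exon length is shared with *AC165425.1* on the opposite strand.

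*Cxcl1* was lower in treated libraries at both ages at an unadjusted P under 0.05. At P1 the values were 226, 150 and 10 in treated and 507 to 512 in untreated libraries, with a log2 fold change of -2.82 ± 1.01 (adjusted P = 0.295 from limma). Treated replicates 1 and 3 differed more from each other than the untreated libraries did, and the log2 fold change was -1.46 without replicate 3 and -3.65 without replicate 1. At P4 they were 5 and 0 against 10, 22 and 15 (-2.70 ± 1.13, adjusted P = 0.399 from limma), with -1.41 when treated replicate 3 and -3.99 when treated replicate 1 was left out. *Cxcl9* stood at 28, 34 and 11 in P1 treated and at 47, 60 and 48 in P1 untreated libraries, without overlap (-1.19 ± 0.47, adjusted P = 0.345 from limma), and at P4 the groups overlapped (-0.39 ± 0.53).

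The ligands of CCR2, which bring monocytes into tissue, had lower means in P1 treated libraries. *Ccl12* stood at 13, 9 and 20 in treated and at 47, 35 and 37 in untreated libraries, without overlap and with a log2 fold change of -1.49 ± 0.36 (adjusted P = 0.139 from limma). *Ccl7* stood at 72, 21 and 28 against 47, 116 and 97, and P1 treated replicate 1 lay within the untreated range (-1.19 ± 0.50, adjusted P = 0.368 from limma). *Ccl2* stood at 89, 33 and 44 against 99, 81 and 106, with the same library within the untreated range (-0.89 ± 0.57, adjusted P = 0.601 from limma). Their receptor gene *Ccr2* stood at 31, 18 and 17 against 15, 25 and 3, with overlap (0.91 ± 0.77). With log2 *Xist* as a covariate, the log2 fold change at P1 was -0.35 for *Ccl7* and -1.66 for *Ccl12*. The lowest untreated value of *Ccl7* at P1, 47, was in P1 untreated replicate 1, where *Xist* was low. At P4, *Ccl12* stood at 43 and 28 against 66, 45 and 70 (-0.75 ± 0.41, adjusted P = 0.505 from limma). The other ligands overlapped at P4. *Ccl7* stood at 44 and 30 against 55, 38 and 69 (-0.52 ± 0.56), and *Ccl2* at 51 and 35 against 56, 14 and 73 (0.12 ± 0.64).

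Macrophage markers were also mostly lower in P1 treated libraries. Of 15 markers, 14 were below 0 in the comparison of P1 treated with untreated libraries, with a median log2 fold change of -0.87, 10 lower at an unadjusted P under 0.05, and 0 called by limma. Their sum was 2243 to 4585 normalized counts in P1 treated and 4825 to 6526 in P1 untreated libraries, against 3828 to 6592 and 4615 to 7076 at P4. In the comparison of treatment at P4, 14 of 15 were also below 0, with a median of -0.38 and 0 at an unadjusted P under 0.05. No macrophage marker was at 0 throughout a group. In bulk tissue, fewer cells of a type and less RNA per cell cannot be told apart. The part of macrophages in the values of *Ccl12*, *Ccl7* and *Ccl2* was not tested. Other cell markers moved in both directions at P1. Endothelial markers summed to 1960 to 3783 in P1 treated and 6540 to 9328 in P1 untreated libraries, much of which was *Emcn* (2349, 576 and 420 against 4537, 6760 and 7009), and 6 of 10 were below 0, with 0 called and a median of -0.35. Mesenchyme markers had overlapping sums (133831 to 209413 against 145508 to 166362) and a median of -0.98, with 5 of 10 lower at an unadjusted P under 0.05, and 1 called, *Lum*, which was higher. Much of each sum was *Lum*, at 100463, 94107 and 132049 against 64459, 60859 and 66546. Supporting cell markers summed to 140007 to 151491 in P1 treated and to 100158 to 127799 in P1 untreated libraries, with 2 of 10 called higher, *Gjb2* and *Gjb6*, and 1 called lower, *Sox2*. The part of supporting cells in the values of *Ackr4* was not tested.

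**Figure D4:**
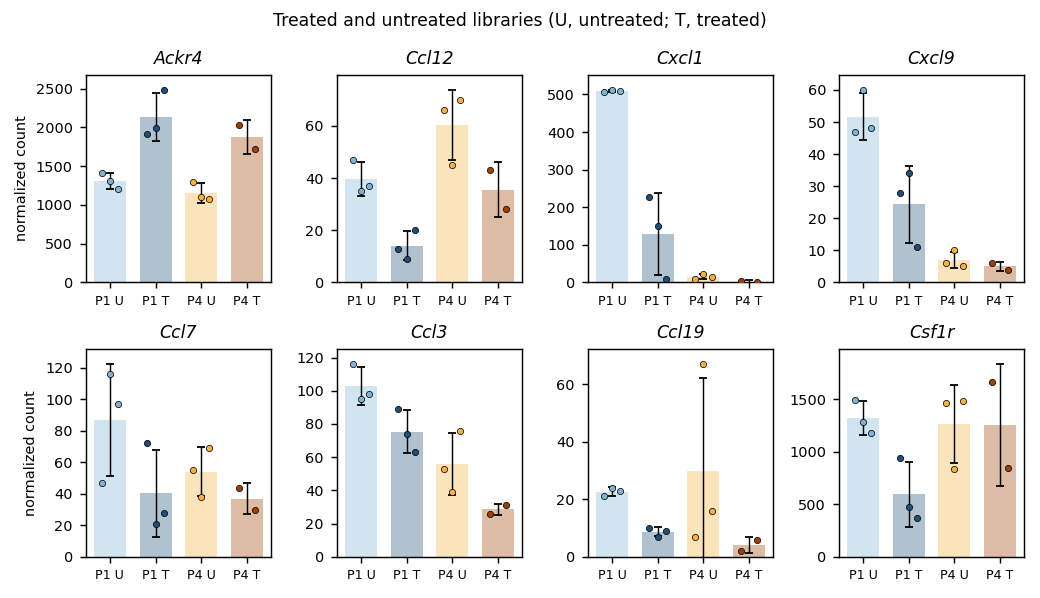
Normalized counts (vertical axes, from 0) in treated (T) and untreated (U) libraries of the members that were at an unadjusted P under 0.05 at P1 or P4, and of the macrophage marker *Csf1r*. Bars are group means, whiskers the SD and points the libraries; *Ackr4* is higher in the treated libraries at both ages, with 1723 to 2484 against 1071 to 1414 normalized counts.

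At P4, 0 of 32 members were called between treated and untreated libraries by limma, and 0.0543% of all genes were called. At an unadjusted P under 0.05, *Ackr4* was higher (3.12% of members, against 6.26% of all genes), and *Ccl19*, *Ccl3* and *Cxcl1* were lower (9.38%, against 5.38%). Values of the groups were separate for 9 members, or 28.1%, and with 2 against 3 libraries this was so for 33.5% of all genes. The median over the members was -0.23. *Ccl3* stood at 26 and 31 in treated and at 53, 39 and 76 in untreated libraries (-0.90 ± 0.32, adjusted P = 0.335 from limma), and at P1 at 89, 74 and 63 against 116, 95 and 98 (-0.45 ± 0.29, adjusted P = 0.6 from limma), without overlap at either age.

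The remaining members without overlap at P4 were *Ccl11* and *Cxcl16*. *Ccl11*, an attractant of eosinophils, stood at 62 and 61 in treated and at 135, 113 and 138 in untreated libraries (-1.05 ± 0.86). At P1 a single treated library, replicate 1 with 400, was above all untreated libraries (115 to 272) while the other treated libraries stood at 44 and 31. Without that library *Ccl11* was called at P1, together with *Ackr4*. *Cxcl16*, a transmembrane ligand of CXCR6, stood at 114 and 78 in P4 treated and at 136 to 270 in P4 untreated libraries (-0.93 ± 0.64), and 18.3% of its exon length is shared with *Zmynd15* on the opposite strand. At P1 there was also no overlap for *Cxcr2*, which stood at 70, 74 and 67 against 56, 61 and 57 (0.27 ± 0.25).

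The other abundant members did not pass in either comparison of treatment. *Ackr3* had log2 fold changes of -0.18 ± 0.14 at P1 and -0.10 ± 0.16 at P4, *Cxcl12* of -0.20 ± 0.17 and -0.29 ± 0.19, *Cx3cl1* of -0.23 ± 0.19 and -0.04 ± 0.21, and *Cxcl14* of -0.11 ± 0.19 and -0.02 ± 0.21. In each of these the treated and untreated libraries overlapped at both ages. Whether treatment acted differently at the 2 ages was tested as an interaction, and 0 members were called by limma, with 0% of all genes. At an unadjusted P under 0.05 there were 0 members, against 5.8% of all genes.

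**Figure D5:**
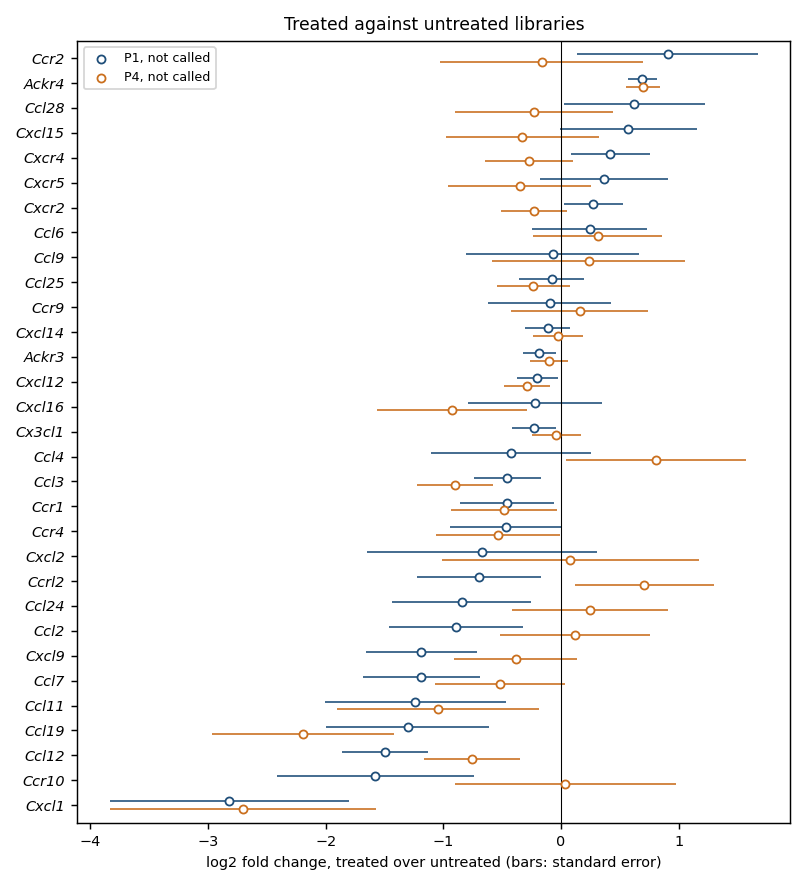
Log2 fold change of treated over untreated libraries (horizontal axis, bars are standard errors) of 31 tested members at P1 and at P4, all shown as open points since none was called. *Ackr4* is at 0.69 and 0.70 with short bars, and *Cxcl1* at -2.82 and -2.70 with bars of about 1 unit.

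Other genes of the pathway were read from lists. Of 16 tested upstream cytokine and NF-kB genes, 5 were higher at P1 in untreated libraries and 5 in treated libraries, with 0 lower in either. Of all genes tested, 10.5% were called higher and 9.38% lower at P1 in untreated libraries, and 5.63% and 5.42% in treated libraries. The 3 with the smallest adjusted P in both comparisons encode the RNA-binding protein ZFP36, which shortens the life of cytokine messages, the interleukin 1 receptor IL1R1 and the NF-kB cofactor IκBζ. *Zfp36* stood at 5788, 10086 and 7588 in P1 untreated and at 1838, 1097 and 1244 in P4 untreated libraries (log2 fold change 2.49 ± 0.28, adjusted P = 0.000383 from limma). *Nfkbiz* had log2 fold changes of 2.44 ± 0.35 in untreated and 2.35 ± 0.39 in treated libraries. *Il1r1* stood at 241, 229 and 211 in P1 untreated and at 107, 83 and 96 in P4 untreated libraries (adjusted P = 0.000763 from limma), and in treated libraries its log2 fold change was 1.43 ± 0.18. The cytokine gene *Tnf* stood at 26, 32 and 14 in P1 untreated and at 6, 1 and 10 in P4 untreated libraries, and *Il1b* at no more than 22 in any library. With treatment, 0 of the 16 were called at either age, and at each age an unadjusted P under 0.05 was reached by 2 genes in each direction. Of all genes, 5.18% were higher and 6.99% lower at that P at P1, and 6.26% and 5.38% at P4. All these shares also stand beside the counts of the lists below.

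Of 21 chemokine receptor signalling genes, 3 were called between untreated ages, 2 of them higher at P1. Of all genes tested, 10.5% were called higher and 9.38% lower in that comparison. *Rgs16*, which ends G protein signals, stood at 772, 1601 and 1229 at P1 and at 48, 167 and 71 at P4 (log2 fold change 3.78 ± 0.71, adjusted P = 0.00468 from limma). *Arrb2*, an arrestin, had a log2 fold change of 0.59 ± 0.16, and *Elmo1*, a Rac activator, of -0.69 ± 0.11. In treated libraries *Rgs16* alone was called (3.26 ± 0.79). With treatment 0 of the 21 were called at either age, and the unadjusted P was under 0.05 for 2 higher and 4 lower genes at P1 and for 1 higher and 2 lower genes at P4.

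A further list held genes of the chemokine system outside the rule, namely ligands, receptors and related proteins. It had 10 tested rows, among them several of the same gene, *Ccl27a*. Of these rows, 1 was higher at P1 in untreated libraries, *Cklf* (0.58 ± 0.13), and 1 was lower at P1 in treated libraries, *Pitpnm3* (-1.19 ± 0.31). With treatment 0 were called, with 4 lower at an unadjusted P under 0.05 at P1 and 1 lower at P4. *Cx3cr1*, the receptor for CX3CL1 and itself a macrophage marker, stood at 257, 125 and 124 in P1 treated and at 453, 336 and 245 in P1 untreated libraries (-1.07 ± 0.38, adjusted P = 0.294 from limma). *Rarres2*, which encodes chemerin, the protein bound by CCRL2, stood at 192, 52 and 22 against 220, 195 and 277 (-1.89 ± 0.64, adjusted P = 0.266 from limma). At P1 both were lower in every treated library than in the untreated libraries, except for *Cx3cr1* in treated replicate 1. That value lay above the lowest P1 untreated value.

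Markers of other cells changed with age as well. In untreated libraries 1 of 10 mesenchyme markers was higher at P1 and 1 lower, 1 of 10 hair cell markers was higher and 3 lower, 2 of 10 supporting cell markers were higher and 4 lower, 1 of 10 markers of neurons and glia was lower, and 1 of 2 tested neutrophil markers was lower. None of the 15 macrophage, 6 tested lymphocyte, 10 endothelial or 5 red blood cell markers was called. Of all genes tested, 10.5% were called higher and 9.38% lower at P1 in these libraries. Neutrophil markers summed to only 56 to 312 normalized counts and lymphocyte markers to 98 to 223 in any library. The part of a changing make-up of the tissue in the differences between ages was not tested.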

How the data were processed

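The authors deposited a table of normalized counts, used here as a score, in which the counts of each library had been scaled by its own size factor and rounded. The authors freed the sensory epithelium from other tissue with Cell Recovery Solution, made cDNA with the SMARTer V4 kit, aligned reads to mm10 with STAR 2.5.2b, and quantified transcripts with Sailfish, collapsed to genes with tximport and compared with DESeq2. Whether the table holds these counts or those of featureCounts was not worked out. Without the size factors, the original depth of each library is unknown and low values are imprecise. The table covers 11 of 12 libraries, and 1 repeated row was left out.

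Values were transformed to log2(normalized count + 1), a scale that understates the change of low genes, and genes with a mean of at least 10 over all libraries were fitted with limma 3.58.1 in R 4.3.3 (4 groups, eBayes with trend, Benjamini-Hochberg adjustment over 18400 genes). The test was checked on simulated data. Members and lists (3 of pathway genes, 9 of cell markers) were chosen with earlier results of these data known. Members were named when called, when among the 10 with the highest mean, or when treated and untreated libraries did not overlap; other members are given by counts or beside their ligand or receptor, and of each list up to 3 called genes were named. *Ccl2*, *Ccr1*, *Ccr2*, *Ccr10*, *Tnf*, *Il1b*, *Cx3cr1*, *Rarres2*, *Emcn* and *Acad11* were named in addition, after their values were seen, and 1 member is not reported here. Places, exon lengths and overlaps are from GENCODE M21 (GRCm38, the same as mm10), and promoters from RefSeq, whose start sites can differ from these.

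Residuals of untreated libraries with the same replicate number correlated across ages (r = 0.135, 0.136 and 0.115). In the other comparisons they did not (-0.0605 to 0.026). Libraries with unlike replicate numbers were not compared, so these values cannot show that libraries were paired. The replicate block was run as an alternative only. The alternatives were another pseudocount (0.5 or 5), another minimum mean, eBayes without trend, only the groups compared, other scalings, a replicate block, log2 *Xist* as a covariate, other thresholds and leaving out each library.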

Additional observations from a re-analysis of the deposited data

How the results depend on the processing

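The alternatives for single genes were run for 21 log2 fold changes, those of members called and those with an unadjusted P under 0.05 for treatment, and none of these changed sign. For P1 against P4 untreated libraries, 8 members were called, 5 without the filter on low values, 3 with log2 *Xist* as a covariate, 12 at an adjusted P under 0.1, and 4 to 8 when 1 library was left out, with 4 without P1 untreated replicate 2 and 5 without P1 untreated replicate 1. For P1 against P4 treated libraries, 4 were called, 1 with only the groups compared, 0 with log2 *Xist* as a covariate, 7 at an adjusted P under 0.1, and 1 to 5 when 1 library was left out. For treatment at P1, 0 were called, 1 at an adjusted P under 0.1 (*Ackr4*), 1 with treatment averaged over both ages, and 0 to 2 when 1 library was left out, with 2 without P1 treated replicate 1. For treatment at P4, 0 were called, and 1 with treatment averaged over both ages. The cause of these shifts was not tested. With the replicate block, 6 members were called between untreated and 3 between treated ages, and 0 in the other comparisons, and it changed no other call. Without 1 of the 2 P4 treated libraries, the other is assumed to vary like the other groups. Of 439 values of single members under an alternative, 373 kept their side of the threshold, 65 lost the call and 1 gained it. Groups of 2 or 3 libraries limit every comparison, and most members were near the lowest values tested.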

Other observations

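Some members below the minimum mean were seen mainly in single libraries or groups. These were picked after their values were seen and were not tested. *Ccr8*, a receptor of T cells and other leukocytes, stood at 4, 4 and 9 normalized counts in the P1 treated libraries, at 1, 1 and 0 in the P1 untreated, at 0 and 3 in the P4 treated and at 0 in all P4 untreated libraries. *Ccl22*, a ligand of CCR4, reached 14 in P1 untreated replicate 1 and at most 2 in any other library. *Ackr1*, the Duffy antigen receptor of red cells and venous endothelium, reached 8 in P4 untreated replicate 3 and at most 2 elsewhere. *Ccr7* reached 12 in P1 treated replicate 3 and 13 in P4 untreated replicate 2, and at most 4 elsewhere. The library with 13 of *Ccr7* was also the one with 67 normalized counts of its ligand gene *Ccl19*, the highest of any library.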
